A study of Arabidopsis thaliana with 30 samples.

Results

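The transcripts of 8 heat shock factors, of the dehydration-response factor DREB2A and of the coactivator MBF1C were followed in Arabidopsis thaliana seedlings treated with antimycin A, which blocks respiratory complex III in mitochondria. The 10 genes were taken by their locus identifiers: the class A factors HSFA2 (AT2G26150), HSFA3 (AT5G03720), HSFA4A (AT4G18880), HSFA7A (AT3G51910) and HSFA7B (AT3G63350), the class B factors HSFB1 (AT4G36990), HSFB2A (AT5G62020) and HSFB2B (AT4G11660), DREB2A (AT5G05410) and MBF1C (AT3G24500). All 10 were among the 6297 genes that at least 1 of the authors' 5 deposited tables listed, and 6 of them were among the 1125 genes listed in all 5. RNA came from whole seedlings, 10 days old, raised on upright half-strength Murashige and Skoog plates and then held in liquid medium with 50 µM antimycin A or with a mock treatment for 5 h. The lines were the snrk1a mutant (snrk1a-2), the jmj15 mutant (jmj15-2), the crf6 mutant (crf6-2), a line overexpressing SnRK1a (SnRK1aOX) and the wild type Col-0 (WT), each with 3 antimycin A libraries and 3 mock libraries, 30 in all. SnRK1a is a kinase of energy signalling, JMJ15 a histone demethylase and CRF6 a cytokinin response factor. Each line is 1 allele or 1 transgenic line, and the promoter that drives SnRK1a in SnRK1aOX is not given in the sources used here.

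Each line had a table of its own, normalised separately, which listed a gene when its q-value was under 0.05 and its log2 fold change lay beyond 1 in either direction. A gene that a table does not list is therefore unlisted, which does not mean unchanged. The values are read counts that the authors adjusted for library size, so that depth per library is unknown. The 3 genes that the lines alter, which could have checked the labels, were in no table. The labels do not say that replicates were separate cultures, so the p-values measure the spread between these libraries, which may be technical. Between 2187 genes (SnRK1aOX) and 4115 genes (snrk1a) were listed per table. Of 10 root markers of endodermis and root hairs, 9 were listed as lower after antimycin A in snrk1a, 7 in jmj15, 8 in crf6, 5 in SnRK1aOX and 8 in WT, and none as higher. Their summed value was 308 to 342 in treated against 1787 to 2708 in mock snrk1a libraries, 179 to 297 against 604 to 1357 in jmj15, 531 to 626 against 1939 to 2953 in crf6, 206 to 483 against 478 to 1411 in SnRK1aOX and 658 to 817 against 1587 to 3312 in WT. Of 6 shoot markers, 1 was listed once, LHCB2.1 as higher in SnRK1aOX. In bulk seedlings, fewer cells of a type and less RNA per cell cannot be told apart, and the part of these markers in the results below was not tested.

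Heat shock factors are transcription factors that bind heat shock elements, which are inverted repeats of the unit GAA, in the promoters of chaperone genes. Class A factors carry an activation motif, whereas class B factors lack it, and some of them act as repressors that also bind heat shock factor genes. DREB2A binds the dehydration-responsive element of drought and heat genes, its protein being kept low by ubiquitin ligases in unstressed plants, and MBF1C is a coactivator needed for basal heat tolerance.

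Heat shock elements in the members' own promoters were read from the RefSeq genome, build TAIR10.1, in the 250 bases before each annotated start. On either strand, a match of 2 units (GAANNTTC or TTCNNGAA) was found for 5 of the 10 genes and in 16.1% of 27443 nuclear protein-coding promoters. A match of 3 alternating units, each 2 bases from the next, holds 2 overlapping matches of 2 units and was found for 4 of the 10 genes, against 0.386% of the promoters. The 4 genes were HSFA2, HSFA7A, HSFA7B and DREB2A, and HSFA7A held 2 such matches. HSFA4A had a match of 2 units only, 173 to 166 bases before its start. The dehydration-responsive element (ACCGAC or GCCGAC) was found for HSFB2A only, 71 to 66 bases before its start, and in 7.09% of all promoters. The mitochondrial dysfunction motif was found for none of the 10 and in 1.2% of all promoters. A match describes these letters and is neither a shown site nor a cause. The 4 promoters with a match of 3 units are shown because their genes are those with the long element. They run 5′ to 3′ on the + strand up to the base before the start and have every match of 2 or 3 units in capitals. They lie at chr2:11135466-11135623 for HSFA2, where the window ends at the neighbouring gene, at chr3:19264941-19265140 for HSFA7A, at chr3:23399036-23399235 for HSFA7B and at chr5:1602005-1602204 for DREB2A.
HSFA2: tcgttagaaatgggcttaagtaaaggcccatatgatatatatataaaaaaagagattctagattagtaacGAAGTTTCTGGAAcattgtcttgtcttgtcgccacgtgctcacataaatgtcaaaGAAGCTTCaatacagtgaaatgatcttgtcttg
HSFA7A: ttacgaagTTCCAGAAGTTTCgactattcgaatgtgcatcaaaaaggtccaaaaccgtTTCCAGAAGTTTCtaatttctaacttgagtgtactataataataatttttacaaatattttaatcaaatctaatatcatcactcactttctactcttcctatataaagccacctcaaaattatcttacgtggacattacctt
HSFA7B: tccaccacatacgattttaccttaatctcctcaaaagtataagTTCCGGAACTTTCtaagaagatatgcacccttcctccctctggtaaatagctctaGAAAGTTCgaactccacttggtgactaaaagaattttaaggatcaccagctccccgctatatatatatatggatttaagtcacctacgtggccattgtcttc
DREB2A: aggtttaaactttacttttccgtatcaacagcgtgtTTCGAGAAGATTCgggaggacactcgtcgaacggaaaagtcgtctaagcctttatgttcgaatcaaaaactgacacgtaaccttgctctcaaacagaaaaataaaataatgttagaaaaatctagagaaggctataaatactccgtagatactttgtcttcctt
In HSFA2 the long match ended 76 bases before the start, and in HSFA7B and DREB2A it ended 145 and 152 bases before it. The 2 long matches of HSFA7A ended 180 and 130 bases before its start.

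**Figure D1:**
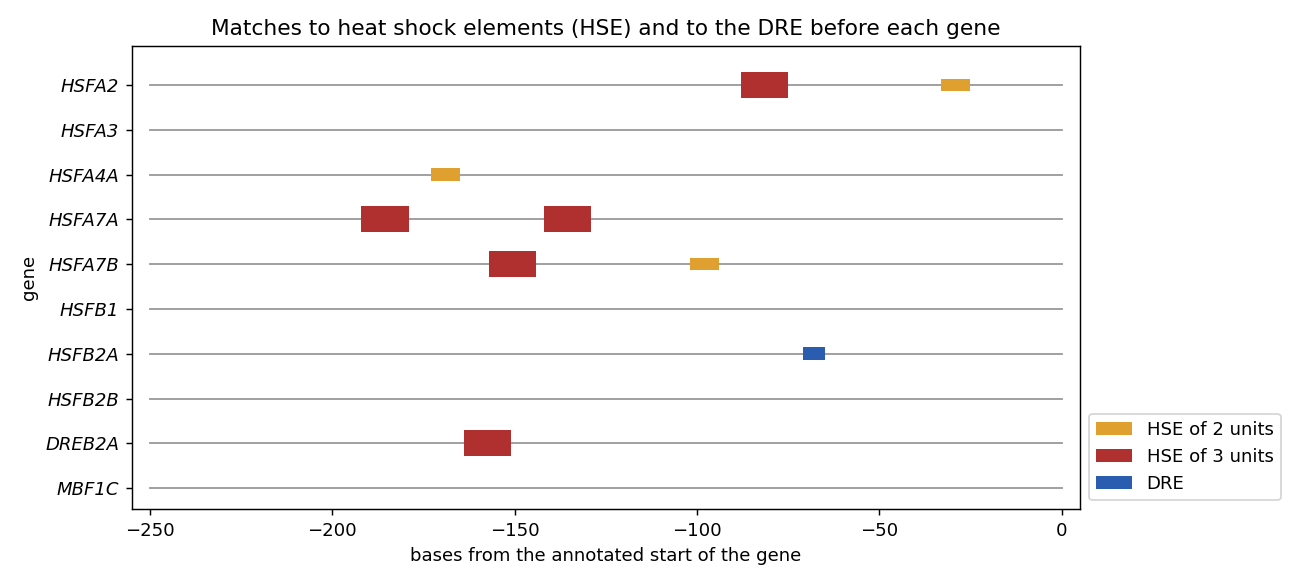
Positions of heat shock element and dehydration-responsive element matches (horizontal axis, bases from the annotated gene start) in the promoters of the 10 genes (rows). Matches of 3 heat shock units appear for HSFA2, HSFA7A, HSFA7B and DREB2A only.

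The tables listed 7 of the 10 genes in snrk1a, 8 in jmj15, 9 in crf6, 7 in SnRK1aOX and 7 in WT, each of them as higher after antimycin A and none as lower. For comparison, the authors called 7.17% of all tested genes higher and 10.1% lower in snrk1a, 6.63% and 6.04% in jmj15, 6.97% and 7.71% in crf6, 5.55% and 3.67% in SnRK1aOX, and 5.83% and 8.84% in WT. The 10 members were chosen with earlier results of these data known, and each is listed at least once. Their counts beside these shares are therefore a description and not a test of the gene family. HSFA2, HSFA4A, HSFA7B, HSFB2A, DREB2A and MBF1C were listed in all 5 lines. In each of the 38 cases where a member was listed, the 3 treated libraries lay above the 3 mock libraries, as they did for 95.7% of the genes listed as higher in snrk1a, 97.8% in jmj15, 95.8% in crf6, 96.4% in SnRK1aOX and 96.7% in WT. A refit with limma on log2(value + 1), adjusted by Benjamini-Hochberg over all genes the authors tested, passed 0.05 for 7 members in snrk1a, 8 in jmj15, 9 in crf6, 6 in SnRK1aOX and 7 in WT. In SnRK1aOX it passed for 3 without treated replicate 2. The refit called 5.97% of tested genes higher in snrk1a, 5.32% in jmj15, 5.61% in crf6, 3.86% in SnRK1aOX and 4.68% in WT. Only listed genes were fitted, so an unlisted gene could not be called. Of the genes listed as higher, the refit called 1423 of 1709 in snrk1a, 1263 of 1574 in jmj15 and 1334 of 1658 in crf6. In SnRK1aOX it called 915 of 1316 such genes, and in WT 1112 of 1383. The median log2 change of the listed members was 2.53 in snrk1a, 1.95 in jmj15, 2.11 in crf6, 2.34 in SnRK1aOX and 1.97 in WT, beside 1.54, 1.70, 1.50, 1.57 and 1.51 over all genes listed as higher, in the same order of lines. Listing itself required a log2 change over 1, so these medians and the refit describe genes already selected for their change.

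**Figure D2:**
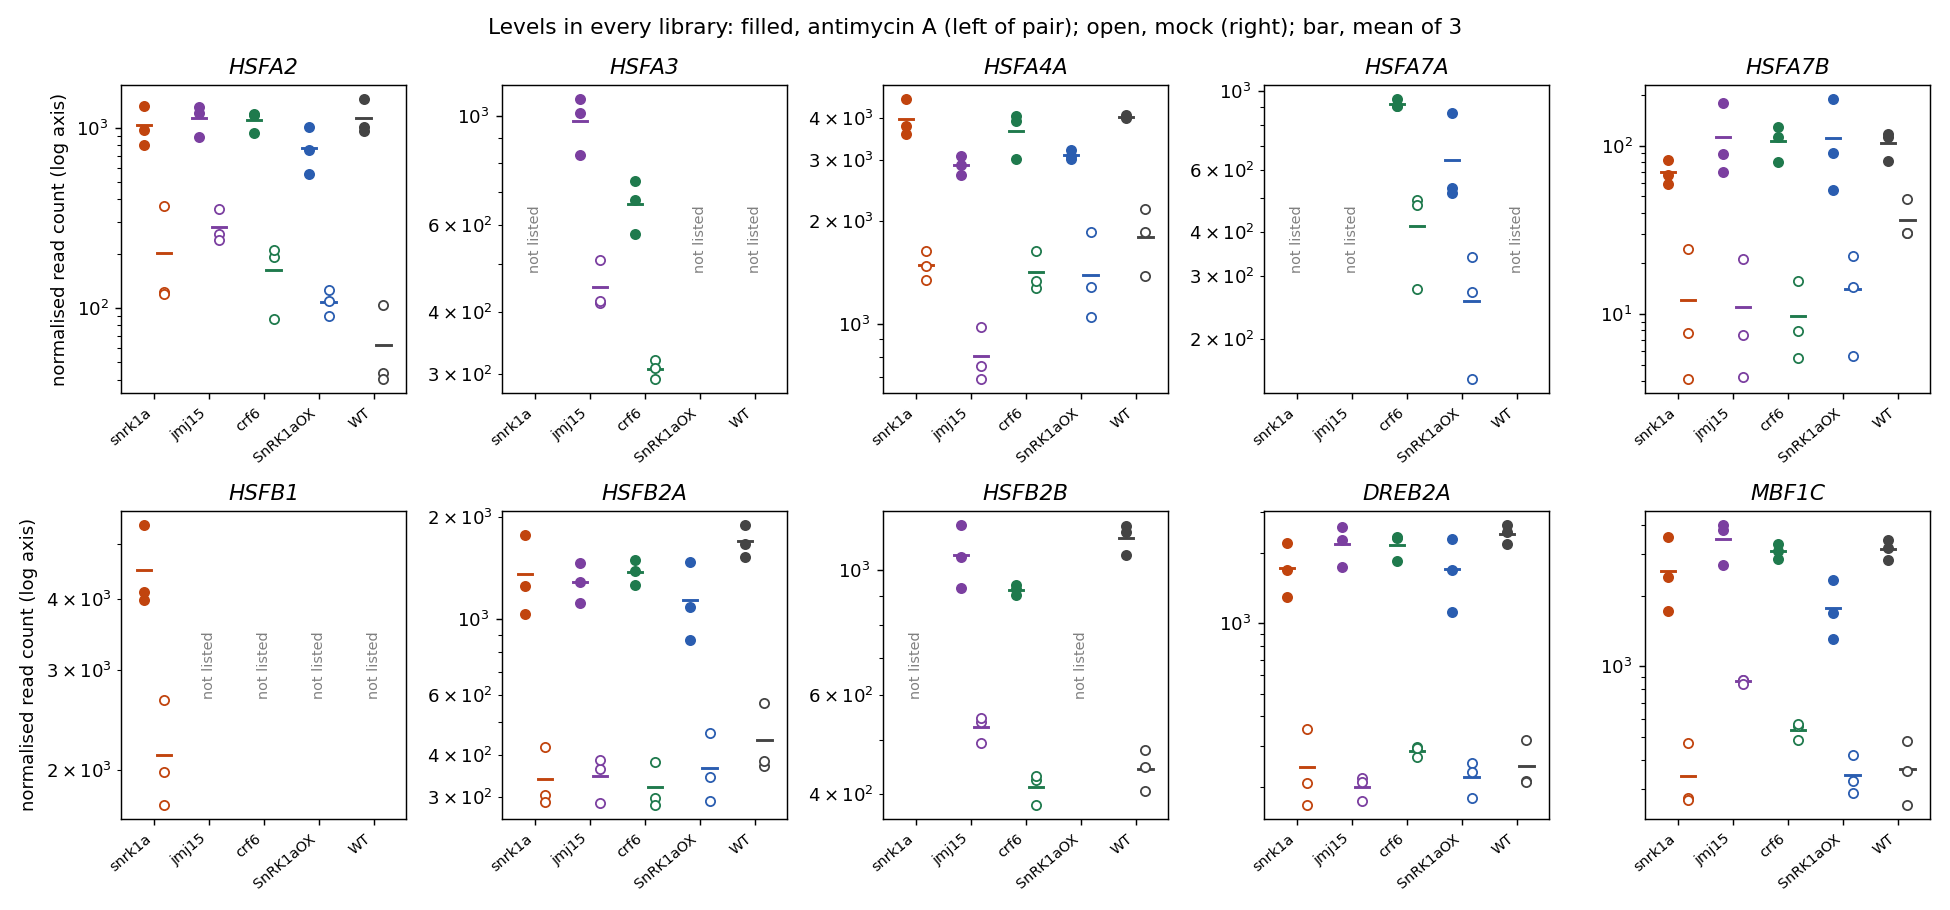
Normalised read count (log axis) of each gene in every library of the tables that list it, with antimycin A libraries filled and at the left of the open mock libraries in each line. In every panel and listed line the filled points lie above the open ones.

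DREB2A (chr5:1602205-1604112, + strand, TAIR10.1), the activator of drought- and heat-responsive genes, rose in all 5 lines. Its normalised count was 1686, 1299 and 2208 in treated snrk1a libraries, against 354, 208 and 167 in mock libraries. In jmj15 it was 2268, 2570.0 and 1741 after antimycin A, against 217, 209 and 174 after mock. In crf6 it was 1847, 2329 and 2309.7 after antimycin A, against 267, 297 and 293 after mock. The lowest treated library of these 3 mutants was thus far above the highest mock library. SnRK1aOX had 2292, 1685 and 1120.0 in treated libraries, against 252, 178 and 231 in mock libraries. WT had 2445, 2176 and 2640.1 in treated libraries, against 317, 211 and 209.9 in mock libraries. The treated SnRK1aOX libraries were the most spread, at a mean of 1699 ± 586 against 220.2 ± 37.8 in mock (SD, n = 3 each). The log2 change was 2.87 ± 0.30 (SE) in snrk1a, 3.44 ± 0.19 in jmj15, 2.91 ± 0.15 in crf6, 2.90 ± 0.28 in SnRK1aOX and 3.32 ± 0.20 in WT, with limma adjusted p-values between 5.23e-05 (jmj15) and 0.00331 (SnRK1aOX). By p-value, the authors' deposited table placed DREB2A 6th among the listed genes of crf6 and 13th in WT, and 28th in jmj15, 55th in SnRK1aOX and 239th in snrk1a.

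HSFA2 (chr2:11135624-11137792, + strand), the heat-induced activator that sustains heat shock gene expression, rose in all 5 lines and had the widest range of changes among the members listed in every table. Its count in treated libraries was 975, 803 and 1323 in snrk1a, against 366, 123 and 119 in mock libraries. In jmj15 the treated libraries had 1215, 1309 and 893, against 256, 353 and 238 in mock libraries. In crf6 they had 938, 1196 and 1179, against 86.6, 193 and 210.2 in mock libraries. Treated and mock libraries did not overlap in these lines, and snrk1a mock replicate 1 stood above the other mock libraries of its line. SnRK1aOX had 1015, 748 and 556 after antimycin A, against 125, 90.2 and 109.7 after mock. WT had 1005, 959 and 1445 after antimycin A, against 103, 43.7 and 40.3 after mock. The treated means were 1034 ± 265 in snrk1a, 1139 ± 218 in jmj15, 1105 ± 144 in crf6, 773 ± 230.4 in SnRK1aOX and 1136 ± 268 in WT (SD, n = 3 each). On the log2 scale the change was 2.53 ± 0.41 (SE) in snrk1a (limma adjusted p = 0.0021), 2.01 ± 0.22 in the jmj15 mutant (0.000506), 2.84 ± 0.33 in the crf6 mutant (0.000837), 2.79 ± 0.27 in SnRK1aOX (0.00327) and 4.28 ± 0.36 in WT (0.0002).

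MBF1C (chr3:8918267-8919683, + strand), the coactivator of basal heat tolerance, rose in all 5 lines. Its count was 2394, 1727 and 3555 in treated snrk1a libraries, against 475, 276 and 271 in mock libraries. It was 4012, 3796 and 2701 in treated jmj15 libraries, against 876, 879 and 844 in mock libraries. In crf6 it was 2870.3, 3103 and 3329 after antimycin A, against 486, 558 and 569 after mock. The mock libraries of jmj15 agreed within a narrow range, while treated snrk1a libraries spread widely around their mean of 2559 ± 925 (SD, n = 3). SnRK1aOX had 2332, 1681 and 1307 in treated libraries, against 419.9, 325 and 289 in mock libraries. WT had 3437, 2836 and 3204 in treated libraries, against 480.5, 258 and 359 in mock libraries. No treated library overlapped the mock range of its line. The log2 change was 2.89 ± 0.30 (SE) in snrk1a, 1.99 ± 0.17 in jmj15, 2.53 ± 0.14 in crf6, 2.34 ± 0.25 in SnRK1aOX and 3.15 ± 0.22 in WT, with limma adjusted p-values from 9.05e-05 in crf6 to 0.00346 in SnRK1aOX. MBF1C shares annotated bases with 3 genes on the other strand and DREB2A with 1, and none of these was listed. Nothing in the labels records strand, so reads of such pairs cannot be told apart.

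HSFA7B (chr3:23399236-23400812, + strand), a heat-induced class A factor, had the lowest counts of the members and rose in all 5 lines. Its count was 59.0, 67.2 and 81.9 in treated snrk1a libraries, against 7.67, 4.11 and 24.5 in mock libraries. In jmj15 it was 180.0, 89.3 and 69.5 after antimycin A, against 21.1, 4.25 and 7.50 after mock. In crf6 it was 129, 79.8 and 112 after antimycin A, against 15.7, 5.47 and 7.95 after mock. All groups were clear of each other, but mock values varied several-fold within a line. SnRK1aOX had 189.6, 54.8 and 90.5 after antimycin A, against 14.4, 22.0 and 5.61 after mock. WT had 81.2, 113 and 118 after antimycin A, against 30.3, 30.5 and 48.2 after mock, the mock values being above those of the other lines' tables. Its log2 change was 2.74 ± 0.58 (SE, limma adjusted p = 0.00901) in the snrk1a mutant, 3.40 ± 0.62 (0.00811) in jmj15, 3.42 ± 0.46 (0.00152) in crf6, 2.90 ± 0.62 (0.0332) in SnRK1aOX and 1.51 ± 0.35 (0.02) in WT. The call in WT ended without treated replicate 2 or 3 or mock replicate 1 or 2, at adjusted p = 0.0979, 0.0935, 0.0719 and 0.0623. In jmj15 it ended without treated replicate 1 (adjusted p = 0.0630), and in SnRK1aOX without treated replicate 1, 2 or 3 (0.119, 0.0748 and 0.119) or mock replicate 1 or 3 (0.0759 and 0.0978).

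HSFA7A (chr3:19265141-19266806, + strand), its close relative with 2 long heat shock matches, was listed in crf6 and SnRK1aOX. In crf6 it had 904, 949 and 907 after antimycin A, against 493, 277 and 477 after mock, and in SnRK1aOX 867, 516 and 532, against 154, 341 and 271. Its groups did not overlap in either line. The log2 change was 1.19 ± 0.23 (SE, limma adjusted p = 0.0117) in crf6, where the call ended without treated replicate 2 or 3 (0.0561 and 0.0533). In SnRK1aOX it was 1.35 ± 0.34 (adjusted p = 0.0718), which did not pass, whereas the authors' deposited table gave a q-value of 0.000149. This was the only listed case of 38 that the refit did not pass.

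HSFA4A (chr4:10347479-10349902, − strand), a class A factor linked to reactive oxygen signalling, was abundant after mock treatment and rose in all 5 lines. Its count was 3793, 3577 and 4537 in treated snrk1a libraries, against 1631, 1473 and 1344 in mock libraries. In jmj15 it was 2899.7, 3092 and 2719.7 after antimycin A, against 689, 977 and 753 after mock. In crf6 it was 3027, 4034 and 3899 after antimycin A, against 1269, 1334 and 1635 after mock. Every treated library was well above mock in these mutants. SnRK1aOX had 3217, 3031 and 3092 after antimycin A, against 1854, 1276 and 1048 after mock. WT had 4018, 3998 and 4059 after antimycin A, against 2164, 1851 and 1379.8 after mock. Treated replicates of both lines were close together and their mock replicates were more spread. HSFA4A changed by 1.42 ± 0.16 (SE, log2) in snrk1a, 1.86 ± 0.16 in jmj15, 1.37 ± 0.16 in crf6, 1.20 ± 0.22 in SnRK1aOX and 1.19 ± 0.18 in WT, with limma adjusted p-values from 0.000163 (jmj15) to 0.0169 (SnRK1aOX). In SnRK1aOX the call ended without treated replicate 1, 2 or 3 or mock replicate 2, at adjusted p = 0.0731, 0.0973, 0.0682 and 0.0641.

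HSFA3 (chr5:971142-974326, − strand), a class A factor switched on downstream of DREB2A in heat, was listed in jmj15 and crf6 only. Its count was 1080.5, 1013 and 834 in treated jmj15 libraries, against 509.9, 418 and 421 in mock libraries, and 736, 575 and 675 in treated crf6 libraries, against 292, 320.2 and 308 in mock libraries. The groups were separate in both. The log2 change was 1.11 ± 0.16 (SE, limma adjusted p = 0.00256) in jmj15 and 1.1 ± 0.17 (0.00313) in crf6. The listed gene AT5G03710 lies on the other strand and shares 486 bases with HSFA3. Its mean count was 9.51 ± 8.97 in treated and 1.54 ± 1.35 in mock jmj15 libraries (SD, n = 3 each), against means of 976 ± 128 and 449.5 ± 52.3 for HSFA3.

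Of the class B factors, HSFB2A (chr5:24915807-24917643, + strand), whose promoter held the dehydration-responsive match, rose in all 5 lines. Its count in treated libraries was 1253, 1038 and 1774 in snrk1a, against 303, 420.1 and 290.2 in mock libraries. In jmj15 the treated libraries had 1464, 1288 and 1113, against 288, 362 and 387 in mock, and in crf6 1260.4, 1384 and 1498, against 298, 285 and 379.7. No groups overlapped in these mutants. SnRK1aOX had 1474, 1088 and 869 after antimycin A, against 344, 461 and 292 after mock. WT had 1898, 1526 and 1666 after antimycin A, against 566, 371 and 383 after mock. The treated SnRK1aOX libraries were spread, with replicate 3 lowest. The log2 change was 1.98 ± 0.24 (SE) in snrk1a, 1.90 ± 0.18 in jmj15, 2.11 ± 0.17 in crf6, 1.63 ± 0.26 in SnRK1aOX and 1.97 ± 0.20 in WT, with limma adjusted p-values from 0.000206 (crf6) to 0.00952 (SnRK1aOX). The call in SnRK1aOX ended without treated replicate 2 (adjusted p = 0.0681).

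HSFB2B (chr4:7042354-7044708, + strand), a class B repressor of heat shock factor genes, was listed in jmj15, crf6 and WT. Its count was 1056, 1205 and 931 in treated jmj15 libraries, against 538, 547 and 493 in mock libraries. It was 925, 902 and 943 in treated crf6 libraries, against 383, 424 and 431 in mock libraries. WT had 1169, 1063 and 1198 after antimycin A, against 448, 405 and 479.6 after mock. Replicates were close in all 6 groups. HSFB2B changed by 1.01 ± 0.15 on the log2 scale (SE, limma adjusted p = 0.00262) in jmj15, 1.16 ± 0.14 (0.00109) in crf6 and 1.36 ± 0.15 (0.000515) in WT. HSFB2B shares annotated bases with 2 unlisted genes on the other strand.

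HSFB1 (chr4:17440177-17442151, + strand), a class B repressor of the same kind, was listed in snrk1a only, where it had 4116, 3983 and 5413 after antimycin A, against 2655, 1734 and 1979 after mock. All treated libraries were above the mock libraries, and the log2 change was 1.09 ± 0.20 (SE, limma adjusted p = 0.0045). HSFA3, HSFA7A, HSFB1 and HSFB2B, the members that some tables did not list, had log2 fold changes between 1.02 and 1.36 in the authors' deposited tables that did, near the listing limit of 1. Their absence elsewhere therefore gives no difference between lines.

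**Figure D3:**
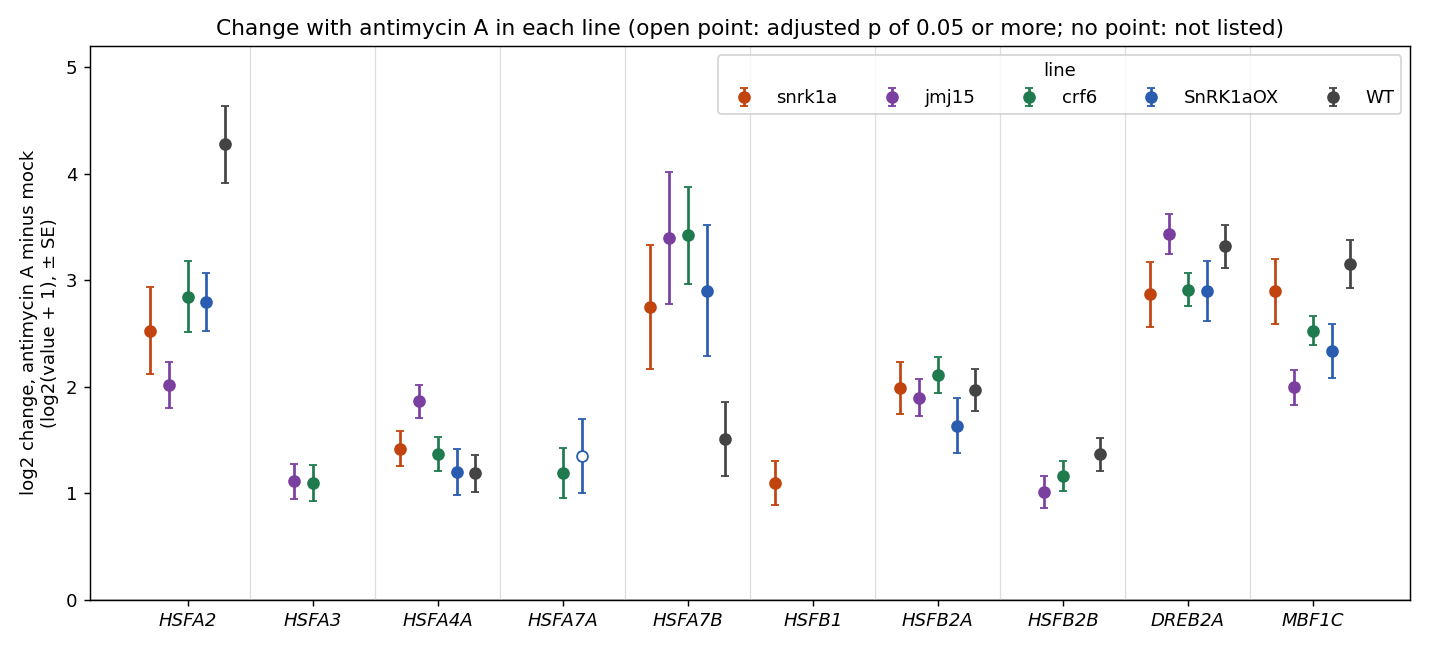
Log2 change (antimycin A over mock, from the limma refit on log2(value + 1)) of each listed gene in each line, with standard errors as bars. DREB2A lies between 2.87 and 3.44 in all lines, and HSFA2 between 2.01 and 4.28.

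Whether the response differed between lines was tested with limma as the difference of the within-table log2 changes, over the genes that both tables list, with Benjamini-Hochberg adjustment. The 4 comparisons with WT share the WT libraries, so they are not independent. Genes had to pass the authors' limits in both tables to enter, and these tests therefore do not cover genes listed in 1 line alone.

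The response of HSFA2 was smaller in jmj15 than in WT, by −2.26 ± 0.46 on the log2 scale (SE; 95% interval −3.26 to −1.27, limma adjusted p = 0.0317). This was the only one of 7 members to pass, among 46 of 2057 genes (2.24%), of which 34 had a higher signed change in jmj15. The median difference over genes higher in both lines was 0.23. The call on HSFA2 ended without jmj15 treated replicate 1 or 2 (adjusted p = 0.0830 and 0.0774), jmj15 mock replicate 1 or 2 (0.0652 and 0.0519), WT treated replicate 1, 2 or 3 (0.0795, 0.0597 and 0.0855) or WT mock replicate 2 (0.0692). Over all alternatives the difference stayed between −2.69 and −2.02, with adjusted p between 0.00462 and 0.0855. MBF1C differed by −1.16 ± 0.30 (95% interval −1.80 to −0.51, adjusted p = 0.0660), which did not pass, but passed without WT mock replicate 1, at −1.37 (adjusted p = 0.0281). HSFA4A differed by 0.68 ± 0.24 (0.15 to 1.20, adjusted p = 0.192) and passed without WT mock replicate 3, at 0.85 (0.0331). HSFA7B differed by 1.89 ± 0.74 (0.30 to 3.49, adjusted p = 0.230), and HSFB2B by −0.36 ± 0.20 (−0.79 to 0.082). DREB2A differed by 0.12 ± 0.28 (−0.49 to 0.73, adjusted p = 0.948).

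In snrk1a, no member of 6 and none of 2440 genes passed against WT in limma (0%), and 1 member and 184 genes (7.54%) had an unadjusted p under 0.05. HSFA2 differed by −1.75 ± 0.61 (SE; 95% interval −3.05 to −0.45, limma adjusted p = 0.565) and HSFA7B by 1.24 ± 0.71 (−0.28 to 2.75, 0.730). The intervals of the other 4 members ran from −0.32 to 0.78 for HSFA4A, from −0.71 to 0.74 for HSFB2A, from −1.30 to 0.39 for DREB2A and from −1.15 to 0.64 for MBF1C. In crf6, no member of 7 and none of 2440 genes passed (0%), and 3 members and 110 genes (4.51%) had an unadjusted p under 0.05. These 3 were HSFA2 at −1.43 ± 0.54 (−2.60 to −0.26), HSFA7B at 1.92 ± 0.57 (0.67 to 3.16) and MBF1C at −0.62 ± 0.28 (−1.22 to −0.026), each with a limma adjusted p of 0.996.

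In SnRK1aOX, no member of 6 passed against WT, beside 2 of 1530 genes (0.131%), and 2 members and 148 genes (9.67%) had an unadjusted p under 0.05 in limma. These were HSFA2 at −1.48 ± 0.49 (SE; 95% interval −2.56 to −0.41, adjusted p = 0.308) and MBF1C at −0.81 ± 0.36 (−1.60 to −0.024, 0.499). HSFA7B differed by 1.39 ± 0.73 (−0.19 to 2.98, adjusted p = 0.582). SnRK1aOX was also set against snrk1a, which asks whether gain and loss of the same kinase differ. No member of 6 passed, beside 1 of 1575 genes (0.0635%), and no member and 158 genes (10.0%) had an unadjusted p under 0.05. HSFA2 differed by 0.27 ± 0.56 (−0.94 to 1.47), MBF1C by −0.56 ± 0.44 (−1.50 to 0.39) and HSFA7B by 0.16 (−1.81 to 2.12). An interval that includes 0 does not show that the lines responded alike, and those of HSFA7B were the widest.

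**Figure D4:**
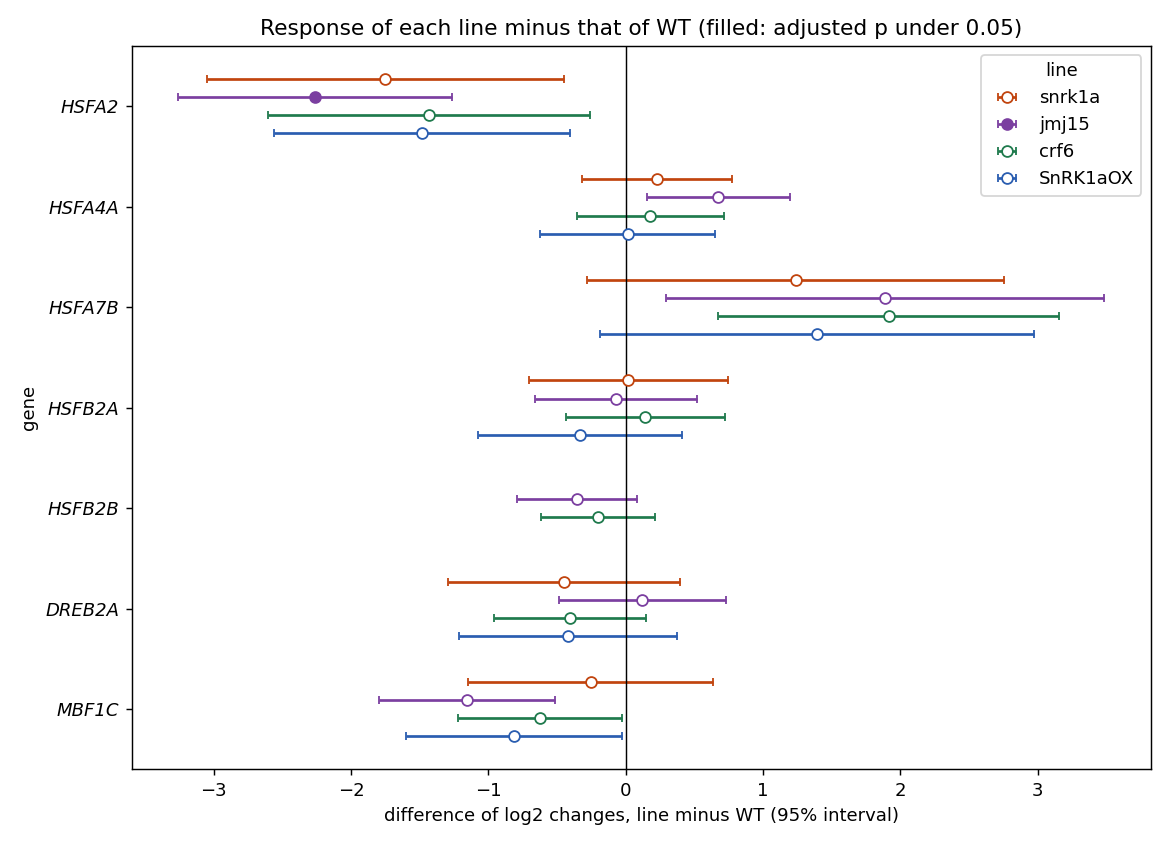
Difference of the log2 responses (each line minus WT) of the members listed in both tables, with 95% intervals from limma. HSFA2 in jmj15 minus WT, at −2.26, is the only difference that passed the adjusted test.

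Levels in the lines come from separately normalised tables and are therefore described without a test. HSFA2 after mock averaged 202 ± 141 in snrk1a, 282 ± 62.0 in jmj15, 163 ± 66.9 in crf6, 108 ± 17.5 in SnRK1aOX and 62.4 ± 35.4 in WT (SD, n = 3 each). As log2 of the line's mean over the WT mean these were 1.68, 2.16, 1.37 and 0.79, in the same order of lines. The medians over all genes listed in both tables were −0.14, −0.47, −0.23 and −0.50. Among those genes the HSFA2 ratios lay at percentiles 99.6, 99.2, 98.8 and 96.5. The mock libraries of snrk1a and jmj15 lay above all WT mock libraries, and those of crf6 and SnRK1aOX overlapped them. Counting both directions, the mock ranges were apart from WT for 23.4% of the genes listed in both tables in snrk1a and 46.3% in jmj15. In crf6 the share was 28.2% and in SnRK1aOX 44.2%, so separate ranges in either direction are common between these tables. After antimycin A the ranges of HSFA2 overlapped those of WT in every line, with log2 ratios of −0.14, 0.0031, −0.041 and −0.55. HSFA7B after mock averaged 12.1 ± 10.9 in snrk1a, 10.9 ± 8.93 in jmj15, 9.70 ± 5.31 in crf6, 14.0 ± 8.22 in SnRK1aOX and 36.3 ± 10.3 in WT, with no overlap with WT. Its log2 ratio to WT after mock was −1.51 in the snrk1a mutant, −1.64 in the jmj15 mutant, −1.80 in the crf6 mutant and −1.32 in SnRK1aOX, at percentiles 0.738, 7.83, 0.410 and 7.65 of the shared genes. After antimycin A its log2 ratio to WT was −0.58, 0.12, 0.041 and 0.10, again in that order. For both genes the lines thus lay farther from WT after mock than after antimycin A. MBF1C after mock averaged 866 ± 19.7 in jmj15 against 366 ± 112 in WT, a log2 ratio of 1.24 at percentile 97.8. In crf6 it averaged 538 ± 45.3, a log2 ratio of 0.55 at percentile 92.5, and neither range overlapped that of WT. In snrk1a and SnRK1aOX its log2 ratios were −0.10 and −0.086, with overlap. HSFA4A after mock averaged 806 ± 151 in jmj15 against 1798 ± 395 in WT, a log2 ratio of −1.16 at percentile 18.8, which is within the common range of the shared genes.

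In some groups the listed members ranked the libraries alike, a variation that the tests take as spread. In snrk1a, treated replicate 3 was the highest of its group for 7 of 7 listed members, with a median log2 ratio to the group mean of 0.35, against 0.066 over all listed genes. In SnRK1aOX, treated replicate 1 was highest for 7 of 7, at 0.40 against 0.13, and replicate 3 was at −0.40 against −0.15. In jmj15, treated replicate 3 was lowest for 8 of 8, at −0.28 against −0.15. Among mock libraries, replicate 1 was highest for 5 of 7 members in WT, at 0.36 against 0.10, and for 5 of 7 in snrk1a, at 0.32 against 0.031. Treated WT replicate 2 was lowest for 6 of 7, at −0.15 against −0.038, and treated WT replicate 3 was highest for 5 of 7. In crf6, treated replicate 1 and mock replicate 1 were each lowest for 6 of 9. The highest library varied more in some groups. In treated crf6 libraries, replicates 1, 2 and 3 were highest for 2, 4 and 3 of 9 members, and in mock jmj15 libraries for 3, 4 and 1 of 8.

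Of the 13 remaining heat shock factors, the tables listed HSFA9 and HSFB3 as higher in snrk1a and SnRK1aOX, HSFB3 in crf6, HSFA6B as lower in jmj15, and none in WT, which is 0 to 2 of 13 per table beside the shares of all tested genes given above. In the limma refit, HSFB3 passed in snrk1a (log2 change 1.13 ± 0.29, SE, adjusted p = 0.0262) and in SnRK1aOX (1.33 ± 0.30, 0.0457). HSFB3 in crf6 (1.19 ± 0.46, 0.227), HSFA6B (−1.81 ± 0.66, 0.203) and HSFA9 in both lines did not pass. The HSFA1 genes, which encode the main activators at the onset of heat, were unlisted in every table. Of 9 other DREB2 and MBF1 genes, 4 were listed as higher in snrk1a, 2 in jmj15, 3 in crf6, none in SnRK1aOX and 1 in WT. DREB2E, a relative of DREB2A, had a log2 change of 2.34 ± 0.23 (SE) in snrk1a, 1.38 ± 0.21 in the jmj15 mutant, 1.23 ± 0.18 in crf6 and 1.68 ± 0.25 in WT. DREB2C, another relative, had 1.52 ± 0.19 in snrk1a, 1.33 ± 0.20 in jmj15 and 1.23 ± 0.17 in crf6. MBF1A and MBF1B, the other coactivators of the family, were unlisted.

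Of 9 genes whose products act on these factors, 3 were listed as higher in snrk1a, 2 in jmj15, 4 in crf6, 3 in SnRK1aOX and 3 in WT. HSP90.1 and HSP70-4, chaperones that hold heat shock factors inactive, were listed in all 5, and the co-chaperone ROF2, which modulates HSFA2, in all but jmj15. The log2 change of HSP90.1 was 3.03 ± 0.41 (SE) in snrk1a, 1.93 ± 0.21 in jmj15, 2.16 ± 0.16 in crf6, 2.53 ± 0.25 in SnRK1aOX and 2.90 ± 0.33 in WT. GRF7, a repressor of DREB2A, was listed as higher in crf6, at 1.24 ± 0.30 (limma adjusted p = 0.0320). DRIP1 and DRIP2, the ubiquitin ligases of DREB2A, were unlisted.

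Among 10 targets of heat shock factors, all were listed as higher in snrk1a, crf6, SnRK1aOX and WT, beside the shares of all tested genes given above. In jmj15 8 were listed as higher, and the peroxidase gene APX2 and the memory gene HSA32 were unlisted. HSP22 was listed in jmj15 but did not pass the limma refit there (log2 change 1.26 ± 0.40, SE, adjusted p = 0.116). HSP101, the disaggregating chaperone, had a log2 change of 2.92 ± 0.24 (SE) in snrk1a, 1.95 ± 0.20 in jmj15, 2.74 ± 0.17 in crf6, 2.63 ± 0.21 in SnRK1aOX and 3.22 ± 0.16 in WT. Between jmj15 and WT, 46 of 2057 genes (2.24%) passed, 12 of them with a smaller signed change in jmj15. The response of 4 of the 8 targets compared was smaller in jmj15 than in WT, namely of HSP22 (−4.41 ± 0.67, limma adjusted p = 0.00876), HSP17.6C (−2.99 ± 0.57, 0.0208), HSP17.6II (−3.13 ± 0.71, 0.0430) and HSP101 (−1.27 ± 0.26, 0.0348). The first 3 of these encode small heat shock proteins. The alternative fits were run for the members only, so how calls on targets depend on single libraries was not tested. These smaller changes did not go with lower levels in jmj15, as far as separately normalised tables show. HSP22 averaged 1614 ± 264 in treated and 763 ± 491 in mock jmj15 libraries, against 687 ± 308 in treated WT libraries (SD, n = 3 each) and 17.2, 16.2 and 5.50 in the 3 mock WT libraries. HSP17.6C averaged 3380 ± 695 in treated and 1375 ± 745 in mock jmj15 libraries, and 1541 ± 460 in treated and 77.5 ± 42.3 in mock WT libraries. For HSP17.6II the means were 3291 ± 655 and 999.7 ± 631 in jmj15 and 1619 ± 543 and 56.5 ± 35.4 in WT, and for HSP101 11341 ± 932 and 3014 ± 909.9 in jmj15 and 10417 ± 1387 and 1116 ± 133 in WT, treated before mock in each line. Among mock jmj15 libraries, replicate 2 was highest for all 4 genes, with 1316 for HSP22 against 598 and 376 in the others. It had 2223 for HSP17.6C against 1078 and 825, 1721 for HSP17.6II against 725 and 553, and 4060 for HSP101 against 2575 and 2407. The mock levels of all 4 genes were higher in jmj15 than in WT, without overlap, as were those of the other 4 targets compared. The lowest jmj15 and highest WT mock values were 159 and 38.4 for HSP21 and 443 and 103 for HSP18.2. They were 132 and 43.1 for HSP26.5 and 634 and 486 for GOLS1. Mock ranges of 46.3% of all genes listed for both jmj15 and WT did not overlap either, counting both directions. The other 4 targets did not pass, with differences of −3.18 ± 0.95 for HSP21 (adjusted p = 0.116), −2.14 ± 0.60 for HSP18.2 (0.0961), −1.92 ± 0.62 for HSP26.5 (0.150) and −0.63 ± 0.39 for GOLS1 (0.519). The modulator HSP70-4 differed by −1.44 ± 0.35 (adjusted p = 0.0504). Against WT, APX2 was the only target to pass in SnRK1aOX, at −3.66 ± 0.56 (limma adjusted p = 0.0372), and no target passed in snrk1a or crf6. APX2 had 51.1, 38.9 and 38.3 in treated and 7.20, 10.1 and 7.61 in mock SnRK1aOX libraries, and 62.9, 39.6 and 79.7 in treated WT libraries. It was listed at 0 in all 3 mock WT libraries, so that the size of this difference depends on the added 1.

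The 5 targets of DREB2A and MBF1C were listed in both directions. The drought gene RD29B and the protective-protein gene LEA14 were listed as higher in snrk1a, RD29B and LEA7 in WT, LEA14 in crf6 and SnRK1aOX, and none in jmj15. LEA14 rose by 1.33 ± 0.18 (SE) on the log2 scale in snrk1a, 1.36 ± 0.14 in crf6 and 1.52 ± 0.17 in SnRK1aOX. RD29B did not pass the limma refit in snrk1a (adjusted p = 0.0575) or WT (0.102). TPS5, a trehalose phosphate synthase gene that MBF1C is known to regulate, was listed as lower in all lines but snrk1a, with log2 changes of −1.36 ± 0.13 in jmj15, −1.56 ± 0.14 in crf6, −1.41 ± 0.17 in SnRK1aOX and −1.31 ± 0.16 in WT. RD29A, the classic dehydration-responsive target, was listed as lower in jmj15, at −1.04 ± 0.18. The defensin gene PDF1.2A, a known target of HSFB1 and HSFB2B, was unlisted in every table.

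For each of the 6 members listed in all tables, the genes with the most similar changes were found by the root mean square difference of the 5 log2 changes over the 1124 other genes listed in all 5. The nearest to HSFA2 was the small heat shock protein gene HSP18.2, at 0.39, followed by AT1G32910 and AT1G59860. The nearest to MBF1C were HSP101 (0.17), HSP90.1 (0.23) and HSP23.6-MITO (0.30), which all encode chaperones. DREB2A had NCED9 (0.30), NIT2 (0.33) and CYP81D11 (0.37) nearest, HSFA4A had UGT73C7 (0.073), HSFB2A had GH3.3 (0.089) and HSFA7B had AT2G01300 (0.45). These distances describe 5 lines and were not tested.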

How the data were processed

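RNA of 30 libraries was analysed from 5 tables, 1 per line. Reads were aligned with Bowtie 0.12.2 to TAIR10, as the submitters' processing notes list them. Which programs did the counting, scaling and testing is not given in the sources used here. The signal deposited by the authors is a read count adjusted for library size within each table, judged from the file headers and values. For each listed gene the deposited columns hold the authors' log2 fold change, p-value and q-value, and in the WT and jmj15 tables also −log10 of the q-value, which was not used. Columns were matched to samples by name. The columns named kin10-2 and KIN10V17 were taken as snrk1a and SnRK1aOX because KIN10 is another name of SnRK1a, which no label states. The members and gene lists were chosen with earlier results of these data known. All 10 members are described, with listed genes of the lists and the 3 nearest genes per member.

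Changes were refitted with limma 3.58.1 (R 4.3.3) on log2(value + 1), two-sided, with empirical Bayes trend, within each table; the added 1 understates changes of low genes. Benjamini-Hochberg adjustment used the number of genes the authors tested, implied by their p and q. The variance prior came from listed genes only. Responses were compared between lines over genes listed in both tables. Intervals are 95%. The fits were tested on simulated data. Alternatives were pseudocounts of 0.5 and 5, a mean value of at least 10, rescaling within groups, no trend, a replicate block, 5 lines in 1 fit, the authors' calls, and leaving out each library. They were examined for the members only.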

Additional observations from a re-analysis of the deposited data

Results flagged for a closer look

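The HSFA2 response to antimycin A differed between jmj15 and WT by −2.26 on the log2 scale, by a limma test of the difference itself (adjusted p = 0.0317). HSFA2 averaged 1139 ± 218 in treated and 282 ± 62.0 in mock jmj15 libraries, and 1136 ± 268 in treated and 62.4 ± 35.4 in mock WT libraries (SD, n = 3 each). The treated ranges overlapped and the mock ranges did not, in tables normalised separately. Mock ranges of 46.3% of the shared genes did not overlap, counting both directions. The log2 ratio of HSFA2 to WT after mock was 2.16, at percentile 99.2 of the shared genes. The cause was not tested.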

How the results depend on the processing

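The number of members passing the refit was 6 in SnRK1aOX and 3 to 5 when 1 library was left out, with 3 without treated replicate 2. For jmj15 against WT it was 1, and 0 to 2 when 1 library was left out, 2 after rescaling within groups, 0 without the trend and 2 with the replicate block, where MBF1C joined HSFA2. Under the replicate block HSFA7B in SnRK1aOX no longer passed (adjusted p = 0.0771). The correlations of same-numbered libraries' deviations lay between −0.315 and 0.0969, so the numbers were not taken to pair samples. MBF1C in jmj15 minus WT passed after rescaling (0.0209) and under the block (0.0439), and HSFA7A in SnRK1aOX after rescaling (0.0312). Without the trend, HSFA2 in jmj15 minus WT (0.0728) and HSFA7B in SnRK1aOX (0.0503) no longer passed. The causes were not tested.

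Differences that changed sign when 1 library was left out did not pass, and ranged as follows. For HSFB2A the range was −0.19 to 0.19 in snrk1a, −0.26 to 0.040 in jmj15 and −0.050 to 0.27 in crf6, each minus WT. For MBF1C it was −0.52 to 0.011 in snrk1a minus WT, for DREB2A −0.076 to 0.28 in jmj15 minus WT, and for HSFA4A −0.17 to 0.24 in SnRK1aOX minus WT. In SnRK1aOX minus snrk1a it was −0.26 to 0.55 for HSFA2, −0.40 to 0.010 for HSFA4A, −0.49 to 0.67 for HSFA7B and −0.28 to 0.30 for DREB2A. Leaving out a library kept direction and side of the threshold in 557 values of single genes. It reversed the direction in 28, ended a call in 25 and gave a new call in 2. The other alternatives kept both in 444 values, ended a call in 3 and gave a new call in 3. HSFB2B, not listed in all 5 tables, had no value in the fit of all 5 lines. Depth is unknown, so counting error could not be given.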
